A study of Drosophila melanogaster with 1908 samples.

Results

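The dpr, DIP, beat and side genes of Drosophila melanogaster encode cell-surface proteins by which neurons and their targets recognize each other. Members were taken by name as all rows of the gene matrix called dpr with a number, starting with DIP- or beat-, equal to side or starting with side-. This gave 54 of 23932 gene names: 21 dpr, 11 DIP, 14 beat and 8 side genes. All 54 matched a gene of the same name in the fly annotation (Ensembl, BDGP6).

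The data are sci-RNA-seq3 profiles, in which nuclei are labelled by rounds of combinatorial indexing and each RNA molecule is counted once by its unique molecular identifier (UMI). Nuclei came from whole fly embryos collected in 11 overlapping windows between 0 and 20 h after egg laying, prepared in 7 experiments (1, 2, 3, 4, 10, 11 and 12), each with several windows. The embryos were wild type, of the Canton S strain, and no treatment or mutant was compared. The 0–2 h and 1–3 h windows held experiments 2, 10, 11 and 12, and 2–4 h held experiments 11 and 12. The 3–7 h window held all experiments but 3, and 4–8 h held experiments 1, 2, 4 and 10. The 5 windows from 6–10 h on held experiments 1, 3 and 10 only. Each nucleus also carried an age in hours that the authors inferred from its RNA with a neural network.

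Dprs and DIPs are immunoglobulin-domain proteins, and each DIP binds a set of Dprs on the facing cell. Different neurons carry different members, and the pairs are known for roles in synaptic partner choice, synapse growth and neuron survival. Beat and Side proteins are related immunoglobulin-family partners: Side on muscles and other targets draws motor axons that carry its receptor Beat-Ia, a step at which axons leave their bundle to enter muscle. Several other pairs are known to bind, among them DIP-alpha with dpr6 and dpr10, DIP-gamma with dpr11, beat-IIb with side-IV, and the 3 beat-V proteins with side-VI.

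The matrix held 547805 nuclei. UMIs were summed over the nuclei of each experiment in each window, giving 38 sums (pseudobulks) of 462334 to 36032867 UMIs from up to 56990 nuclei. Levels are UMIs of the gene per 1000000 UMIs of the sum (CPM), which depend on gene length and capture, so levels were compared within a gene and not between genes. In such sums, fewer cells of a type and less RNA per cell cannot be told apart. Libraries did not behave alike. In the 16–20 h window, experiment 10 had 73% muscle-marked and 5.94% neuron-marked nuclei, against 30.6% and 17.8% in experiment 1 and 26.5% and 19.6% in experiment 3, and 46 of 54 members were lowest in experiment 10 there. Experiment 3 was highest for 37 to 41 of 54 members in the 8–12, 12–16, 14–18 and 16–20 h windows. The part of these shares in the results was not tested, and calls given with their fold change that did not pass without 1 experiment are named with the result.

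Most members came on late. Along inferred age, in bins of 1 h, the level of a bin was the mean CPM over experiments, the peak was the highest bin, and onset was the first of 2 neighbouring bins at 25% or more of the peak. Onset fell before 6 h for 16 of 54 members, between 6 and 11 h for 7 and from 11 h on for 31. The median onset was in the bin starting at 11 h for dpr, 10 h for DIP, 12 h for beat and 10.5 h for side genes, and the median peak was in the 16–17 h bin in each subfamily. Over 13802 genes with at least 50 UMIs the median onset was 3 h and the median peak 7 h, and 14.5% of them had an onset from 11 h on. The 14 pan-neuronal genes (elav, nSyb, brp, Syt1 and other genes of neuronal RNA control and synapses) had a median onset of 11 h and a median peak of 16 h. By contrast, 36 other immunoglobulin-family and leucine-rich recognition genes, such as Dscam1, Fas2 and robo1, had a median onset of 4 h and a median peak of 10 h. Inferred age was learned from the same RNA counts, so these timings are a description with no test. They moved with the settings: an onset level of 10% of the peak gave medians of 4 to 8.5 h by subfamily, and leaving out experiment 3 moved the median peak of dpr and beat genes to 14 h.

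**Figure D1:**
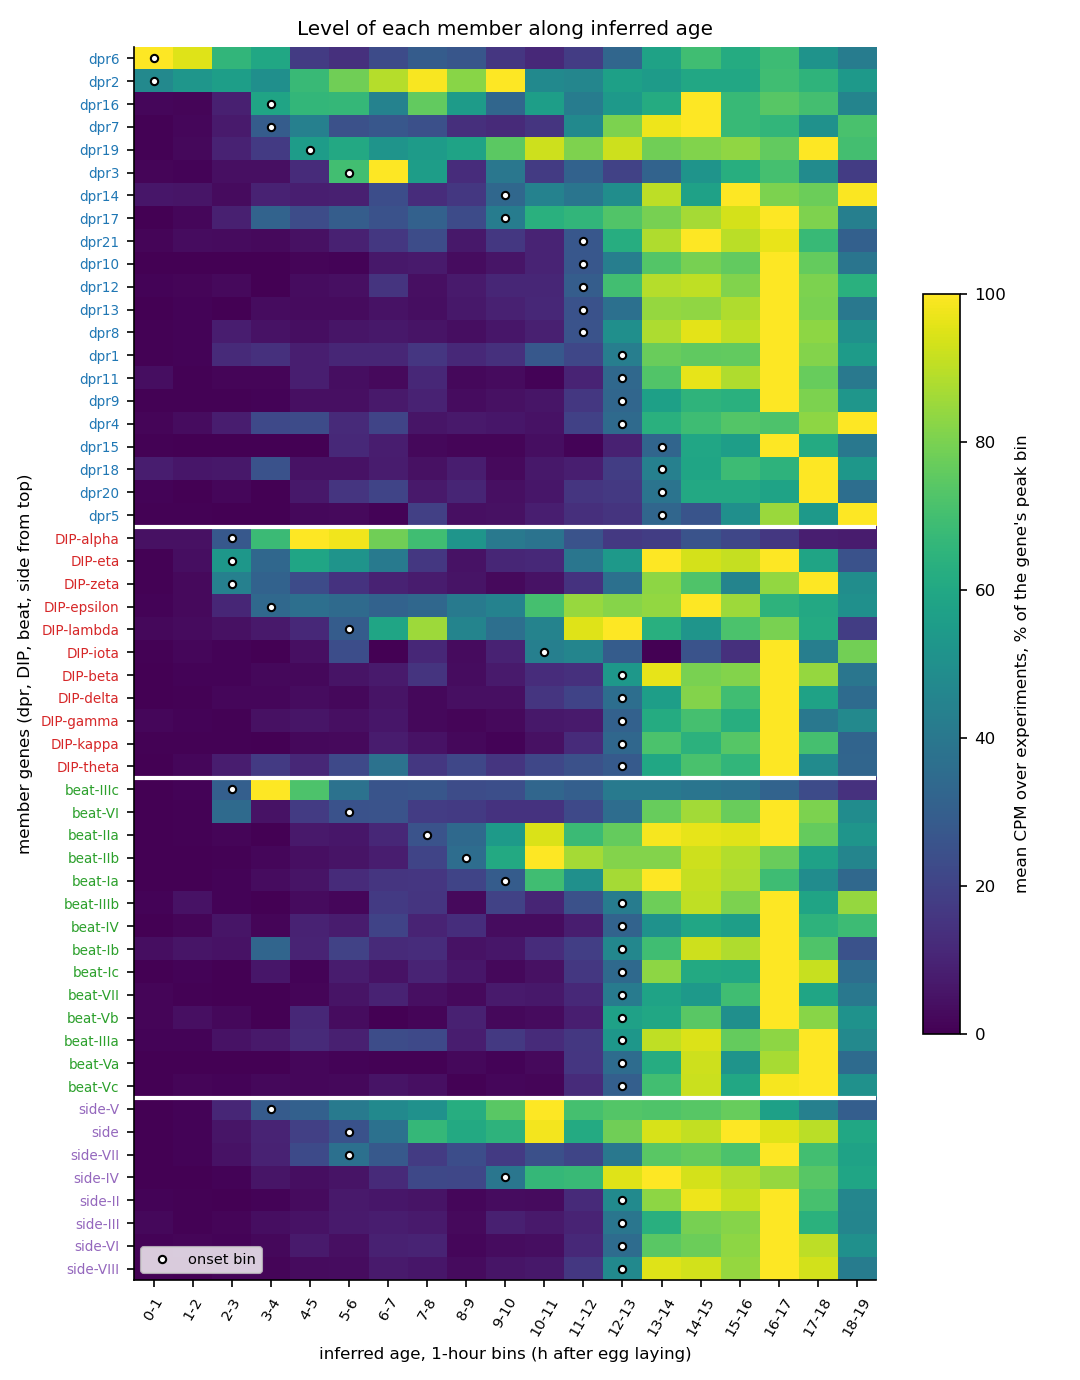
Level of each of the 54 members (rows, grouped as dpr, DIP, beat and side from the top) in 1-h bins of inferred age (columns), as a percent of the gene's own peak bin, with levels as mean CPM over experiments. A circle marks the onset bin, and 31 of 54 circles stand at 11 h or later.

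Within the dpr subfamily, 13 of 21 genes had an onset from 11 h on. In the onset bin starting at 11 h were dpr8, dpr10, dpr12 and dpr13, all with a peak at 16 h, and dpr21, with a peak at 14 h. In the 12 h bin came dpr1, dpr9 and dpr11, which peaked at 16 h, and dpr4, which was highest in the last bin, 18–19 h. In the 13 h bin came dpr15 with a peak at 16 h, dpr18 and dpr20 with a peak at 17 h, and dpr5, also highest in the last bin. That bin held only experiments 1 and 10. In experiments 1, 3 and 10 on their own, dpr4 peaked at 16, 15 and 17 h and dpr5 at 18, 16 and 17 h. Of the earlier genes, dpr14 and dpr17 had an onset at 9 h and peaks at 15 and 16 h. The onset was at 3 h for dpr7 and dpr16, both with a peak at 14 h, at 4 h for dpr19, with a peak at 17 h, and at 5 h for dpr3, with a peak at 6 h. In the first bin stood dpr2 and dpr6. The strand used in counting is not stated, so genes that share exon sequence with another gene are uncertain. This holds most for dpr16, where the overlapping gene cno had 163593 UMIs, and also touches dpr4, side-IV, DIP-alpha, DIP-gamma, DIP-theta, DIP-zeta and beat-IIIa. Other members overlap genes with which they share no exon, such as dpr6 with 10 and beat-Ib and beat-Ic with 7 each. The part of those genes in the counts was not tested.

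The DIP genes split most evenly. An onset at 12 h and a peak at 16 h were shared by DIP-beta, DIP-delta, DIP-gamma, DIP-kappa and DIP-theta. On their own, experiments 1, 3 and 10 put the DIP-beta peak at 14, 13 and 16 h. For DIP-delta they put it at 16, 16 and 14 h, and for DIP-theta at 15, 16 and 14 h. For DIP-gamma and DIP-kappa it was 16 h in each. DIP-alpha had an onset at 2 h and a peak at 4 h. DIP-eta and DIP-zeta had a first onset at 2 h and peaks at 13 and 17 h, DIP-epsilon had its onset at 3 h and peak at 14 h, and DIP-lambda at 5 and 12 h. DIP-iota, with 96 UMIs in all, had an onset at 10 h and a peak of 1.36 CPM at 16 h and was too low for the tests. DIP-alpha, with 31866 UMIs, shares exon sequence with CG2875 (17929 UMIs) and ppk8.

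In the beat subfamily, an onset at 12 h was shared by 9 of 14 genes. Among them beat-IV, beat-Ib, beat-Ic, beat-VII, beat-IIIb and beat-Vb peaked at 16 h, while beat-IIIa, beat-Va and beat-Vc peaked at 17 h. The motor axon receptor gene beat-Ia came on at 9 h and peaked at 13 h. The onset was at 7 h for beat-IIa and 8 h for beat-IIb, with peaks at 16 and 10 h. For beat-VI it was 5 h, with a peak at 16 h, and beat-IIIc stood apart with an onset at 2 h and a peak at 3 h. Among the side genes, side-II, side-III, side-VI and side-VIII shared an onset at 12 h and a peak at 16 h. The onset was at 9 h for side-IV, with a peak at 13 h, and at 5 h for side-VII and side, with peaks at 16 and 15 h. Earliest was side-V, with an onset at 3 h and a peak at 10 h.

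Some onsets, early and late, moved when 1 experiment was left out. Among later onsets, dpr17 moved from 9 h to 3 h without experiment 3, 4 or 12. Likewise beat-IIIa moved from 12 h to 6 h without experiment 2, 3 or 11. The onset of dpr20 moved from 13 h to 5 h without experiment 3, and that of dpr4 from 12 h to 3 h without experiment 12. Among early onsets, dpr7 moved from 3 h to 6 h without experiment 1, and to 11 h with UMIs pooled over experiments. The onset of dpr16 moved from 3 h to 4 h without experiment 1. Its level was only 2.66 CPM in the onset bin and 4.56 CPM in the peak bin. In its onset bin, 5–6 h, beat-VI ran between 7.35 and 50.8 CPM over 7 experiments, and without any one of experiments 1, 3, 10 or 11 its onset was at 12 h. At 2–3 h DIP-zeta had 55.1 CPM in experiment 1, against 0 to 11.5 CPM in the others, and its onset moved to 12 h without experiment 1 or 11. DIP-eta, at 36.7 CPM in experiment 1 against 0.699 to 10.9 CPM in that bin, moved to 3 h without experiment 1 and to 4 h without experiment 11. In that bin the lowest DIP value above 0 in experiment 1 was 18.4 CPM, of DIP-lambda. The DIP-zeta and DIP-eta values of experiment 1 there thus rest on very few UMIs. The early and the late phase of DIP-eta were separated by low bins, with 12 to 28 CPM in experiments 1, 3 and 10 at 16–17 h, against 0.903 to 5.75 CPM in the same experiments at 9–10 h.

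The first step between windows, 3–7 h against 0–2 h, was a broad rise. Counts were tested with edgeR's quasi-likelihood test and Benjamini-Hochberg adjustment over 12116 genes at a false discovery rate (FDR) of 0.05. Of 53 members that passed the filter on low counts, 44 rose and 1 fell, with a median log2 fold change of 3.06. Over all genes tested 43.4% rose and 27% fell, with a median of 0.54. By subfamily, 15 of 21 dpr, 10 of 10 tested DIP, 11 of 14 beat and 8 of 8 side genes rose. A rise also passed for 35 of the 36 other recognition genes and 13 of the 14 pan-neuronal genes. The 8 tested members that did not pass were dpr2, dpr5, dpr14, dpr15, dpr18, beat-Ib, beat-IIIb and beat-Vb, at −0.89 to 2.0 on the log2 scale.

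The largest rise was that of beat-IIIc, the beat gene with the earliest onset. At 3–7 h it had a lowest value of 516.8, a median of 814.1 and a highest of 1466 CPM over 6 experiments, against 1.23, 10.8, 7.75 and 4.27 CPM in experiments 2, 10, 11 and 12 at 0–2 h. The windows did not overlap, and the rise was 6.70 ± 0.66 on the log2 scale (SE, FDR 7.46e-11). In its peak bin, 3–4 h of inferred age, the experiments spread widely, with 3063, 1738, 374.6, 4987 and 702.2 CPM in experiments 1, 2, 10, 11 and 12. From 6–10 h on its level differed little between windows beyond the spread of experiments, and at 16–20 h it was 616.5, 824.9 and 383.1 CPM in experiments 1, 3 and 10.

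The side genes side-V and side rose next. At 3–7 h side-V had a lowest value of 145.8, a median of 181.4 and a highest of 288.8 CPM over 6 experiments, against 1.23, 6.36, 1.04 and 0.542 CPM in experiments 2, 10, 11 and 12 at 0–2 h (log2 fold change 6.15, SE 0.54, FDR 6.81e-12). The muscle attractant gene side ran between 52.6 and 199.5 CPM, with a median of 76.8 CPM, at 3–7 h, against 0, 3.97, 0.588 and 0.373 CPM at 0–2 h (5.83, SE 0.57, FDR 7.70e-11). For each of these genes the lowest 3–7 h value was several times the highest 0–2 h value, and at 0–2 h experiment 10 was the highest.

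DIP-alpha, a DIP that is known to label a subset of motor neurons and their synapses, rose early and fell late. It had a lowest value of 199.8, a median of 255.6 and a highest of 493.6 CPM over 6 experiments at 3–7 h, against 7.36, 12.4, 16.8 and 12.9 CPM in experiments 2, 10, 11 and 12 at 0–2 h (log2 fold change 4.12, SE 0.40, FDR 5.34e-11). At 12–16 h it had 36.7, 60.6 and 33.3 CPM in experiments 1, 3 and 10, against 119.98, 184.7 and 94.7 CPM at 8–12 h. This fall of 1.74 on the log2 scale (SE 0.43, FDR 0.0035) was the only one among the members at that step, and every experiment was lower at 12–16 h. It did not pass in DESeq2 (−1.33, FDR 0.079), without experiment 1 (−1.52, FDR 0.139) or without experiment 10 (−1.53, FDR 0.142). In neuron-marked nuclei alone it was −0.15 (FDR 0.855).

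The partner of DIP-alpha dpr6 ran the other way at the first step. It had 11.6, 14.3, 11.2 and 4.36 CPM in experiments 2, 10, 11 and 12 at 3–7 h, where experiments 1 and 4 had 15.8 and 16.9 CPM, against 58.9, 62.2, 115.6 and 84.2 CPM at 0–2 h. The windows did not overlap, and the fall was 3.08 on the log2 scale (SE 0.39, FDR 1.61e-08), the only fall at this step among the members. Later it rose to 45.6, 65.8 and 55.3 CPM at 12–16 h, against 11.5, 11.1 and 8.43 CPM at 8–12 h in experiments 1, 3 and 10 (2.30, SE 0.51, FDR 0.0011).

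The gene dpr2 differed widely between experiments of the same window. At 3–7 h it had 100.7, 332.2, 618.8, 155.3, 3.69 and 44.9 CPM in experiments 1, 2, 4, 10, 11 and 12, against 287.1, 193.8, 1.71 and 41.3 CPM in experiments 2, 10, 11 and 12 at 0–2 h. The windows overlapped widely, and no step was called for it. Its nominal peak at 9–10 h came from 633.7 CPM in experiment 2, where experiments 1, 3 and 10 had 105.9, 71.5 and 204.04 CPM, and without experiment 2 the peak bin was 7–8 h.

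Between 8–12 h and 3–7 h few members changed. Of 53 tested, 11 rose and 2 fell (median log2 fold change 0.12), where 11.1% of all genes rose and 6.5% fell (median −0.12). With experiment as a block 9 rose and 3 fell, DIP-alpha being the added fall, at a members' median of −0.16, where 15.3% of all genes rose and 13.1% fell. The rises without the block were beat-IIb, beat-IIa, beat-Ia, side-IV, side, side-V, dpr10, dpr13, dpr14, DIP-beta and DIP-delta. Of these, dpr13, dpr14 and DIP-beta did not pass without experiment 1, nor did dpr13, DIP-beta and side-V without experiment 3. Of the other recognition genes 16 of 36 rose, and of the pan-neuronal genes 2 of 14. In the largest, beat-IIb had 102.1, 98.1 and 60.4 CPM in experiments 1, 3 and 10 at 8–12 h, against a lowest value of 2.68, a median of 6.08 and a highest of 15.4 CPM over 6 experiments at 3–7 h (3.69, SE 0.51, FDR 1.36e-06). Its neighbour beat-IIa had 53, 76.9 and 45.4 CPM at 8–12 h, against 2.35 to 14.2 CPM with a median of 6.52 CPM (3.14, SE 0.45, FDR 2.59e-06). Its partner side-IV had 131.2, 151.6 and 91 CPM at 8–12 h, against 9.72 to 26.7 CPM with a median of 14.2 CPM (3.11, SE 0.45, FDR 3.36e-06). In none of these genes did the windows overlap. The Side receptor gene beat-Ia, at 81.8, 122.7 and 49.1 CPM against 12.9 to 31.4 CPM with a median of 16.5 CPM, rose by 2.29 (SE 0.48, FDR 7.03e-04). In neuron-marked nuclei alone 4 members rose at this step (beat-Ia, beat-IIb, side and side-IV), where 10.9% of all genes did. Neuron-marked nuclei were 4.07% to 12.7% of nuclei at 3–7 h, against 7.87% to 13.8% at 8–12 h. Of the 14 neuron markers, 4 had an onset before 6 h, among them unc-13 (0 h) and elav (4 h). How many of the nuclei marked at 3–7 h were neurons was not tested.

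The 2 falls at this step were DIP-eta and DIP-zeta. DIP-eta had 2.73, 3.76 and 0.865 CPM in experiments 1, 3 and 10 at 8–12 h, against a lowest value of 5.34, a median of 9.11 and a highest of 15.5 CPM at 3–7 h (−1.96, SE 0.51, FDR 0.0053). For DIP-zeta the values were 1.19, 2.77 and 0.865 CPM, against 3.53, 5.59 and 9.08 CPM as lowest, median and highest (−1.88, SE 0.55, FDR 0.0144). The windows did not overlap, yet neither call passed without experiment 1 (FDR 0.111 for DIP-eta and 0.242 for DIP-zeta) or without experiment 10 (0.101 and 0.162), and DIP-zeta did not pass in DESeq2 (0.064) or without experiment 12 (0.056).

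The main rise of the members came between 8–12 h and 12–16 h. Of 53 tested, 37 rose and 1, DIP-alpha, fell, with a median log2 fold change of 2.99, where 13% of all genes rose and 7.85% fell with a median of −0.24. With experiment as a block 20.7% of all genes rose and 27.9% fell, and 40 members rose and 1 fell, with a members' median of 3.05. Without the block, by subfamily, 15 of 21 dpr, 7 of 10 tested DIP, 10 of 14 beat and 5 of 8 side genes rose. The pan-neuronal list moved with them, with 11 of 14 genes higher and a median of 3.10, while of the other recognition genes 10 of 36 rose and 5 fell, with a median of −0.18. Tested members with no call at this step were dpr2, dpr3, dpr14, dpr16, dpr17, dpr19, DIP-epsilon, DIP-lambda, beat-IIIc, beat-IIa, beat-IIb, beat-Ia, side, side-IV and side-V. Muscle-marked nuclei were 23.9% to 26.4% of nuclei at 12–16 h, against 2.79% to 4.29% at 8–12 h, and neuron-marked nuclei 14.4% to 16.9%, against 7.87% to 13.8%.

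The largest of these rises were in beat and side genes and dpr11. At 12–16 h beat-Vc had 23.7, 38.3 and 32.8 CPM in experiments 1, 3 and 10, against 0.546, 0.793 and 0.324 CPM at 8–12 h (5.73, SE 0.74, FDR 1.02e-06). Next to it in the genome, beat-Va had 18, 25.5 and 12.4 CPM, against 0.496, 0.793 and 0.324 CPM (5.05, SE 0.84, FDR 4.98e-05). The third of the cluster, beat-Vb, had 5.51, 8.84 and 4.83 CPM, against 0.397, 0.594 and 0.324 CPM (3.77, SE 0.86, FDR 0.0016). Their partner side-VI had 54.6, 65.5 and 50.5 CPM, against 2.88, 3.37 and 2.27 CPM (4.20, SE 0.56, FDR 1.74e-06). In each of these genes the lowest 12–16 h value was above the highest 8–12 h value. Of the others, side-II had 75.6, 108.1 and 100.98 CPM, against 1.49, 2.38 and 3.78 CPM (5.08, SE 0.72, FDR 4.60e-06). The values of dpr11 were 35.4, 75.6 and 51 CPM, against 1.29, 1.78 and 1.73 CPM (4.96, SE 0.79, FDR 2.74e-05), and those of its partner DIP-gamma 22.4, 38 and 14 CPM, against 1.19, 1.39 and 1.95 CPM (3.94, SE 0.70, FDR 1.11e-04). Among the most counted members, dpr8 had 195.5, 226.6 and 195.5 CPM, against 15.3, 17.2 and 10.1 CPM (3.73, SE 0.51), DIP-beta 74.7, 116.6 and 70.4 CPM, against 8.78, 12.7 and 7.13 CPM (3.08, SE 0.54), and dpr10 122.04, 216.8 and 162.2 CPM, against 10.3, 16.6 and 10.1 CPM (3.63, SE 0.61). DIP-lambda, at 119.3, 261.6 and 122.5 CPM against 81.8, 139.3 and 29.1 CPM, was not called (0.89, FDR 0.344).

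**Figure D2:**
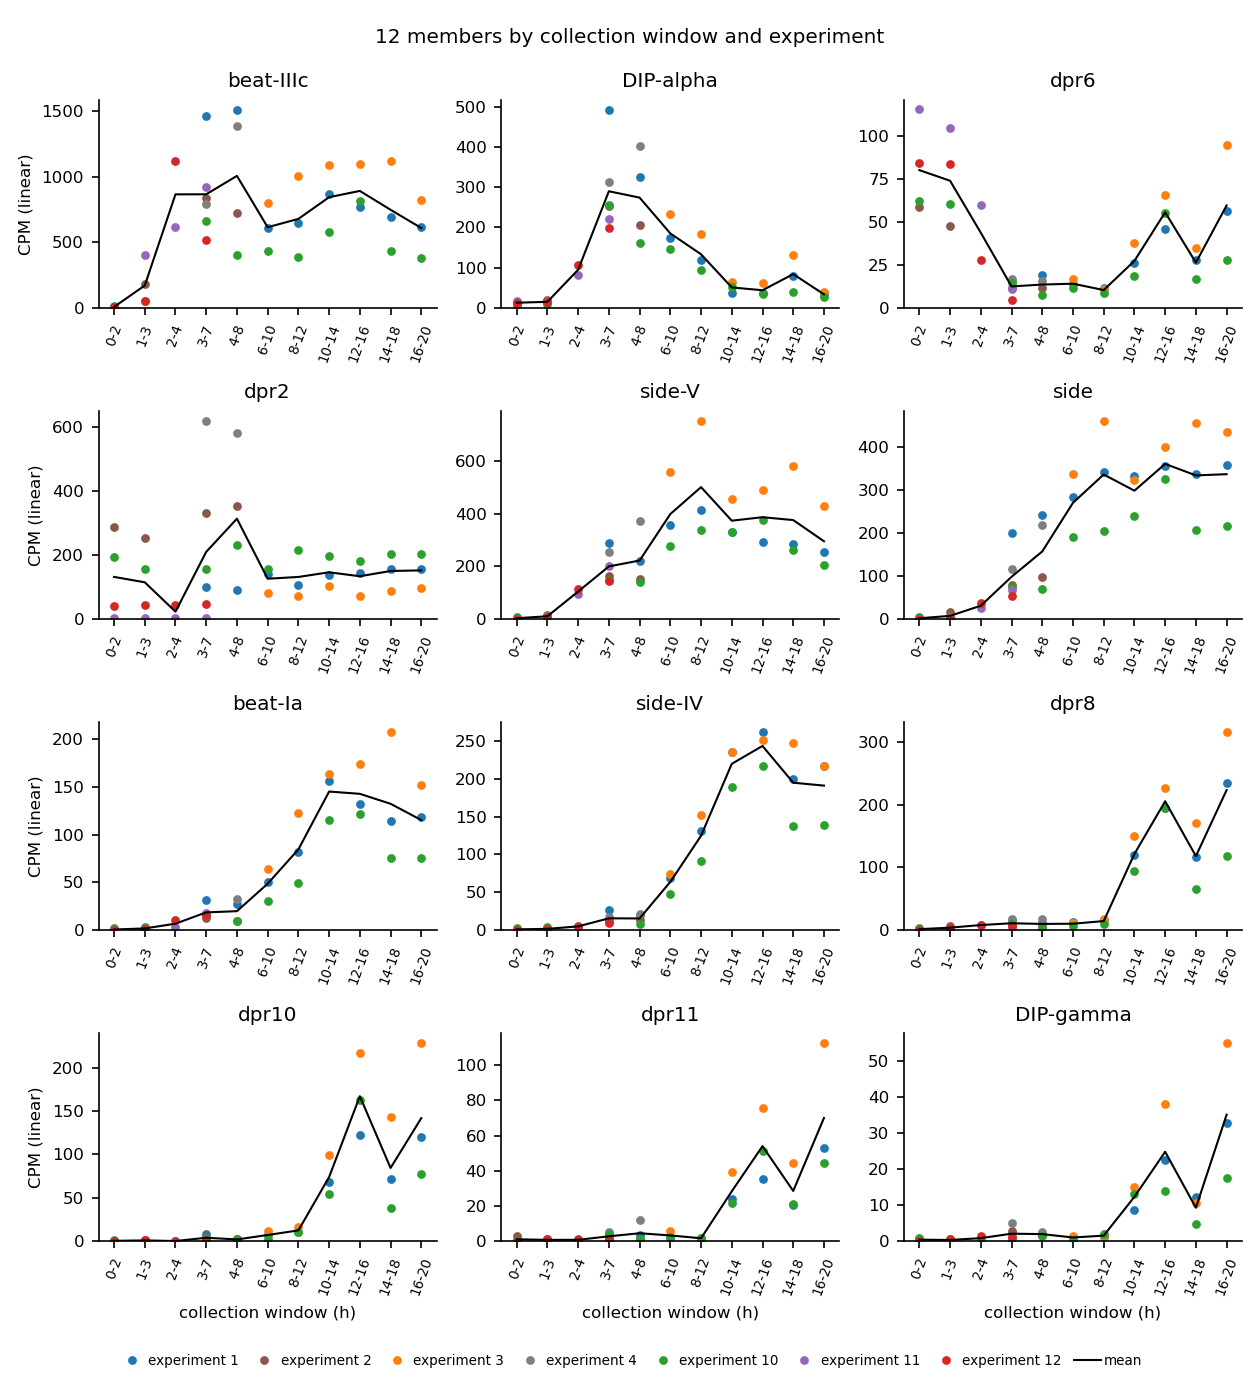
Level (CPM, linear axes that differ between panels) of 12 members by collection window in hours, with 1 point per experiment and a line through the means. DIP-alpha peaks in the 3–7 h window, dpr6 is high before 4 h and again from 12 h, and dpr2 is spread widely between experiments.

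Between 16–20 h and 12–16 h no member was called, nor any other gene (0% higher and 0% lower of 12116). In edgeR, 0 members and 3.58% of all genes had an unadjusted p under 0.05, and DESeq2 called 2 genes and 0 members. With experiment as a block 84 genes were higher and 21 lower, with 0 members among them. The members' median was 0.22, against 0.14 over all genes. In neuron-marked nuclei alone 0% of 8119 genes were higher at this step. The 4 steps form a chain in which neighbouring steps share pseudobulks, so they are not independent of each other. The 14–18 h window stood below its neighbours, with 45 of 54 members in experiment 1, 40 in experiment 3 and 42 in experiment 10 lower at 14–18 h than at both 12–16 h and 16–20 h. For dpr8 the values at 14–18 h were 117.2, 171.8 and 65.3 CPM in experiments 1, 3 and 10. The median inferred age of nuclei was 15.1 to 15.6 h at 14–18 h, between 13.6 to 13.9 h at 12–16 h and 15.7 to 17.7 h at 16–20 h, and the neuron-marked share at 14–18 h was 12.5%, 17.4% and 9.07%. The part of this share in the lower levels was not tested.

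In a fit of a linear trend over the centre hour of all windows, 48 of 52 tested members rose and none fell, at a median of 0.34 log2 units per hour, where 33.8% of all genes rose and 42% fell with a median of −0.02. The 4 without a trend were dpr2, dpr6, DIP-alpha and beat-IIIc, at −0.08 to 0.08 per hour. With dpr15 and DIP-iota not tested, dpr10 had the largest slope, at 0.56 per hour (SE 0.04, FDR 1.84e-15).

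Profiles were compared by Pearson's r of log2(CPM + 1) over 15 bins from 4 h on, for the 53 members with at least 200 UMIs, as a description, since all bins share libraries. The median r was 0.81 over 210 dpr pairs, 0.69 over 45 DIP pairs, 0.85 over 91 beat pairs and 0.70 over 28 side pairs, and 0.81 over 1004 pairs of different subfamilies. A gene's profile was thus about as close to members of other subfamilies as to its own. The closest pairs crossed subfamilies, with r = 0.99 for dpr8 with side-VIII and for dpr9 with beat-Vc. Those that stood apart from their own subfamily were DIP-alpha (median r −0.69), dpr2 (−0.45), beat-IIIc (−0.09), side-V (0.12), dpr3 (0.18), dpr16 (0.35) and DIP-lambda (0.38).

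Known binding pairs mostly shared profiles, as did many pairs of different subfamilies in general (median r 0.81, highest 0.99). The r was 0.99 for beat-Vc, 0.94 for beat-Va and 0.92 for beat-Vb with side-VI, 0.97 for beat-IIb with side-IV, 0.93 for DIP-gamma with dpr11 and 0.90 for beat-Ia with side. For DIP-alpha, highest in the 4–5 h bin, it was −0.66 with dpr6 and −0.87 with dpr10, which was highest in the 16–17 h bin. Several members lie side by side in the genome (BDGP6, dm6). On chromosome 3R, beat-IIb and beat-IIa are 54954 bases apart and had an r of 0.99, and beat-Vc, beat-Va and beat-Vb lie in a row with r of 0.98 and 0.97 between neighbours. On 3L, dpr6 and dpr10 are 8093 bases apart (r = 0.83), and on 2L beat-Ib and beat-Ic had an r of 0.94. The beat-III cluster on 2L did not follow this: beat-IIIa and beat-IIIc are 14518 bases apart with an r of −0.04, while beat-IIIb and beat-IIIa, at a gap of 137039 bases, had an r of 0.94.

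To see which nuclei carried the members, nuclei with an inferred age of 10 to 18 h were marked by fixed lists of cell type markers that hold no member. A nucleus counted as marked for a type if it held UMIs of at least 2 genes of that list and more of it than of any other list. In neuron-marked nuclei the members summed to 8348 ± 1895 CPM (SD, n = 3 experiments), against 3007 ± 1747 CPM in muscle-marked (n = 4), 2428 ± 766.1 in glia-marked, 2233 ± 550.4 in fat body-marked, 2137 ± 183.07 in epidermis-marked, 1991 ± 398.5 in neural progenitor-marked and 1966 ± 160.95 CPM in hemocyte-marked nuclei (n = 3 each). The neuron-marked mean was the highest of the 7 classes for 46 of 54 members, among them all 14 beat genes and 20 of 21 dpr genes. The exceptions were dpr10, side and side-IV (muscle), side-V (glia), DIP-lambda and DIP-iota (fat body), DIP-epsilon (hemocyte) and DIP-alpha (neural progenitor). Glia-marked sums were the shallowest of the 4 classes tested, with 664587 UMIs in all against 10250921 in neuron-marked nuclei, and experiment 2 gave only 42 muscle-marked nuclei.

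Tested with experiment as a block, 40 of 48 tested members were higher and 1 lower in neuron-marked than in muscle-marked nuclei, with a median log2 fold change of 2.66, where 11.7% of 7572 genes were higher and 6.3% lower (median −0.08). Against glia-marked nuclei 42 were higher and none lower (10.1% of all genes higher, members' median 4.00, all genes 0.01). Against epidermis-marked nuclei 43 were higher and none lower (10.9% of all genes higher, members' median 3.15, all genes 0.05). Of the other recognition genes, 21, 16 and 16 of 36 were higher against muscle, glia and epidermis. The 3 contrasts share the neuron-marked pseudobulks, and dpr3, dpr5, dpr16, dpr20, beat-Vb and DIP-iota were too low to be tested.

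The largest differences from muscle were those of beat-IIIa, side-II and dpr15. In neuron-marked nuclei beat-IIIa had 54.8, 100.6 and 62.8 CPM in experiments 1, 3 and 10, against 6.46, 8.39 and 7.03 CPM in muscle-marked nuclei of the same experiments and 0 in experiment 2 (3.40, SE 0.32, FDR 1.62e-08). For side-II the values were 256.7, 364.1 and 274.2 CPM, against 29, 40.6 and 31.1 CPM and 0 in experiment 2 (3.32, SE 0.37, FDR 2.38e-07). For dpr15 they were 16.3, 33.9 and 16.6 CPM, against 1.69, 0.884 and 3.95 CPM and 0 in experiment 2 (3.25, SE 0.50, FDR 3.19e-05). The classes did not overlap in any of the 3 genes, and without experiment 1 dpr15 was too low to be tested. Against epidermis the largest were beat-VI, with 298.03, 306.7 and 208.2 CPM against 15.1, 11.1 and 12.1 CPM (4.22, SE 0.34), side-II, and beat-Ic, with 73.8, 103.9 and 64 CPM against 3.94, 5.57 and 4.04 CPM (4.01, SE 0.42). In glia-marked nuclei beat-Va, beat-Vc and beat-IIIb had no UMI at all, while neuron-marked nuclei had 34.4 to 76 CPM of beat-Va, 70.5 to 104.9 CPM of beat-Vc and 28.4 to 42.6 CPM of beat-IIIb. With 3 UMIs over the class as the floor, the neuron-marked means were at least 12.6-fold, 19.7-fold and 7.45-fold higher. The beat-IIIb call against glia did not pass without experiment 1 (FDR 0.068).

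By the class mean, a group of members was highest outside neuron-marked nuclei, though also present in them. The muscle attractant side had 491.6, 567.98 and 350.7 CPM in neuron-marked nuclei of experiments 1, 3 and 10, against 661.2, 856.6 and 261.5 CPM in muscle-marked nuclei, where experiment 2 had 226.2 CPM. The classes overlapped and side was not called (−0.09, FDR 0.857), nor was dpr10, with 102.98, 177.1 and 113.4 CPM against 204.7, 403.3 and 86 CPM and 102.8 CPM in experiment 2 (−0.50, FDR 0.314). For side-IV the values were 183.3, 170.01 and 130.8 CPM in neuron-marked nuclei, against 415.3, 527.5 and 167.9 CPM in muscle-marked nuclei and 20.6 CPM in experiment 2. It was the only member called lower (−0.96, SE 0.25, FDR 0.0056). That call did not pass without the block (FDR 0.684), without experiment 1 (0.178) or without experiment 3 (0.140). Neuron-marked nuclei had 315.2, 523.2 and 296.5 CPM of side-V, against 380.1, 658.2 and 525.9 CPM in glia-marked nuclei, with no call (−0.15, FDR 0.801). DIP-lambda, picked out after its values were seen, had 169.5, 267.3 and 144.99 CPM in neuron-marked nuclei, against 337.6, 632.1 and 159.9 CPM in fat body-marked nuclei, with no test run between these classes.

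**Figure D3:**
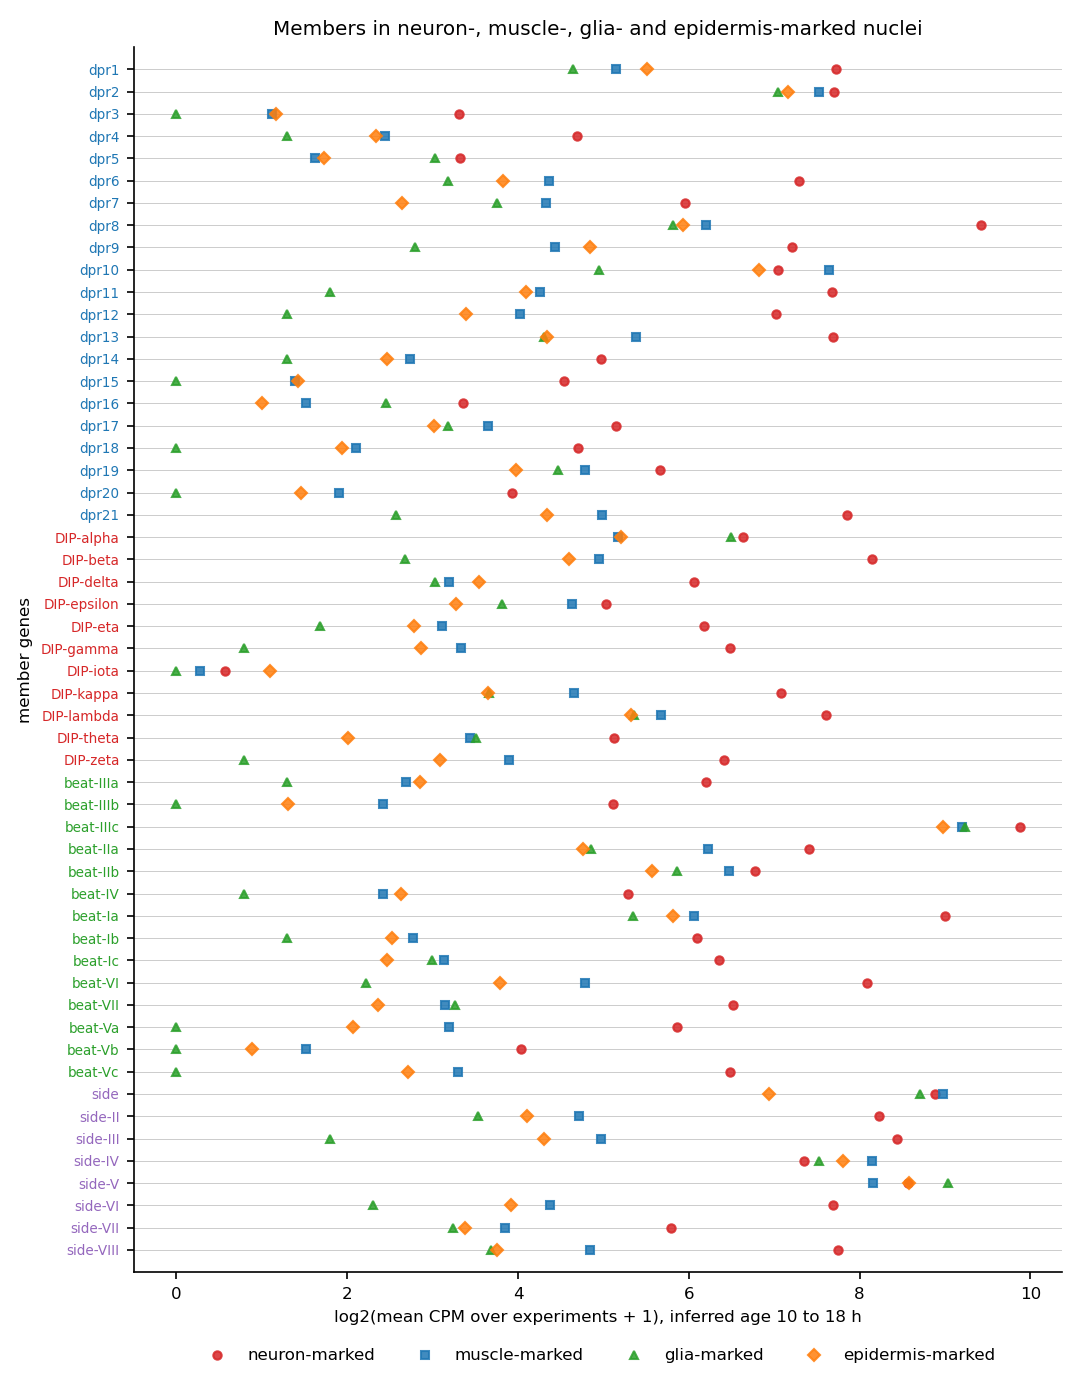
Level of each of the 54 members, as log2 of 1 plus the mean CPM over experiments, in neuron-, muscle-, glia- and epidermis-marked nuclei of inferred age 10 to 18 h. Neuron-marked points lie to the right for most genes, except dpr10, side, side-IV, side-V and DIP-iota.

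The late rise was also present within neuron-marked nuclei. Tested in these alone, 43 of 51 tested members rose and none fell between 8–12 h and 12–16 h (15.9% of all genes rose), with a median of 4.47. Over all nuclei, 11 of the 14 neuron markers rose at this step as well. Nuclei of both windows thus need not be marked by the same genes or be the same kinds of neuron. How far this entered the rise was not tested. Along inferred age, 52 of 54 members were higher at 14–16 h than at 10–12 h in neuron-marked nuclei, all but side and side-V, and the median ratio was 10.9. In these nuclei dpr8 had 894.5 ± 47.2 CPM at 14–16 h, against 97.9 ± 26.2 CPM at 10–12 h (SD, n = 3), side-II 398.4 ± 73.6 against 16 ± 10.3 CPM, and beat-Vc 123.3 ± 5.02 against 7.34 ± 3.72 CPM. By contrast, side had 488.4 ± 36.4 against 555.9 ± 284.3 CPM and beat-IIIc 1001 ± 142.4 against 807.5 ± 253.3 CPM, both within the spread of the experiments. DIP-alpha had 118.4 ± 32.6 against 89.3 ± 40.5 CPM in neuron-marked nuclei. In nuclei marked neither as neuron nor as muscle it had 41.4 ± 28.3 against 71.4 ± 53.5 CPM (n = 4).

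**Figure D4:**
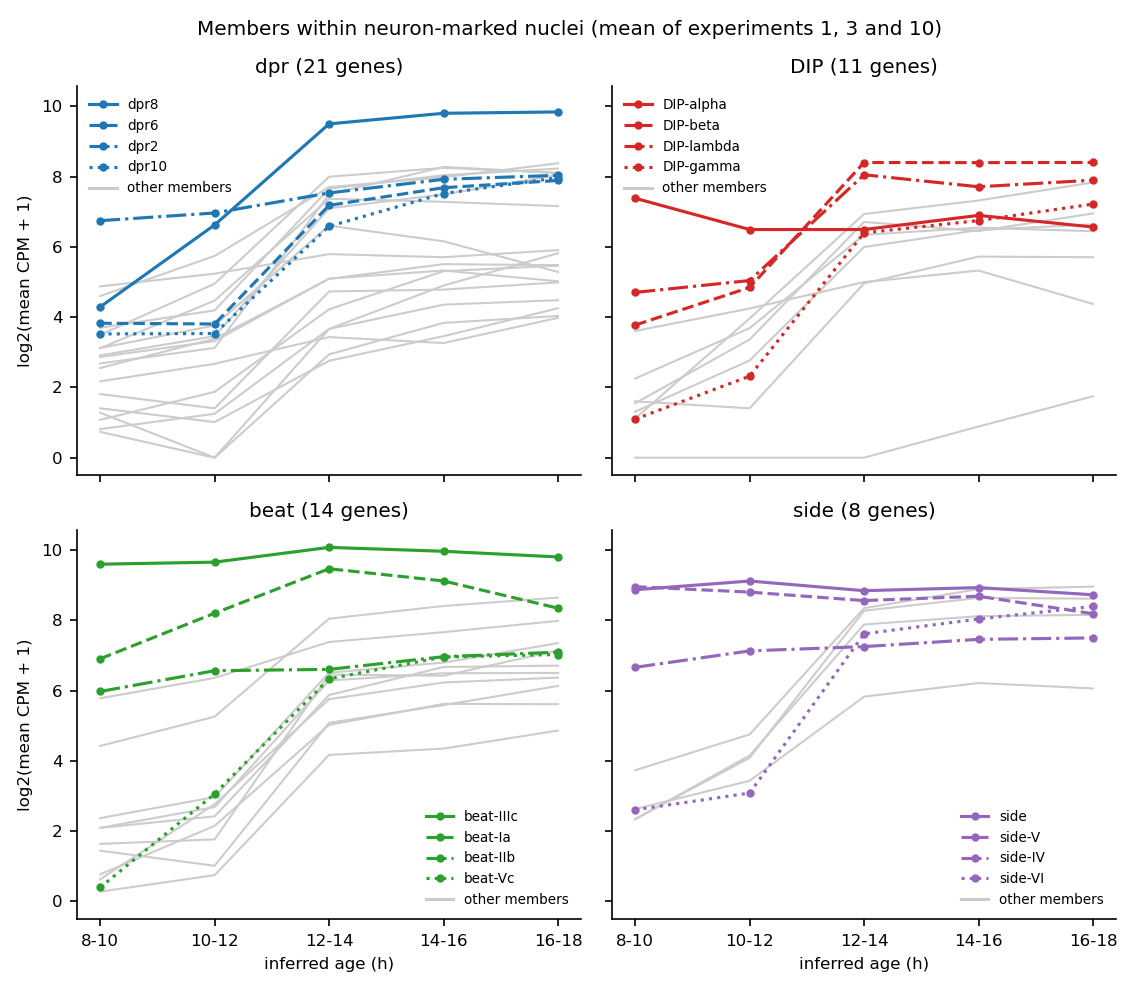
Level of the members within neuron-marked nuclei in 2-h bins of inferred age, as log2 of 1 plus the mean CPM of experiments 1, 3 and 10, with 1 panel per subfamily, 4 members per panel in colour and the others in grey. Most lines climb between the 10–12 h and 12–14 h bins, and side, side-V and beat-IIIc stay near their first level.

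Neuron-marked nuclei were also split by transmitter, taking nuclei with UMIs of 1 transmitter list only: VGlut for glutamate, or VAChT, ChAT and ChT for acetylcholine, or Gad1 and VGAT for GABA. The classes were small, with 49196 to 147612 UMIs per experiment in glutamatergic-marked, 286590 to 917268 in cholinergic-marked and 47684 to 168884 in GABAergic-marked nuclei, and 39 members passed the filter. Each class was tested against the mean of the other 2, with experiment as a block. Among the 39, 3 were higher and 2 lower in glutamatergic-marked nuclei (0.622% and 0.403% of 2731 genes), 3 higher and 5 lower in cholinergic-marked nuclei (1.98% and 1.1%), and 2 higher in GABAergic-marked nuclei (0.33%). Only 11 of the 21 dpr genes were tested here. None of them was called in any class, where at most 1.98% of all genes were called in either direction. Without experiment 3, dpr11 was higher in glutamatergic-marked nuclei (FDR 0.017). The 3 contrasts use the same pseudobulks.

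Motor neurons of the fly use glutamate, and the gene for the Side receptor, beat-Ia, was higher in glutamatergic-marked nuclei. It had 1009, 1655 and 752.1 CPM there in experiments 1, 3 and 10, against 383.8, 370.5 and 251.2 CPM in cholinergic-marked and 473.7, 125.8 and 249.1 CPM in GABAergic-marked nuclei (1.76, SE 0.24, FDR 1.08e-04). The classes did not overlap. For beat-VI the values were 989.1, 1399 and 711.4 CPM, against 225.7, 244.9 and 188.4 CPM in cholinergic-marked and 432.2, 964.7 and 402.4 CPM in GABAergic-marked nuclei (1.53, SE 0.19, FDR 6.35e-05). Its glutamatergic value was the highest in each experiment but overlapped the GABAergic values of other experiments, while every cholinergic value was below every other (−1.75, SE 0.20, FDR 5.84e-06). Also higher in glutamatergic-marked nuclei was side-VIII, at 447.1, 1433 and 447.2 CPM (0.90, FDR 0.0237), and lower were beat-IIIc, at 426.8, 614.3 and 630.1 CPM (−0.99, FDR 0.0042), and DIP-zeta, at 54.2, 34.1 and 81.3 CPM from 14 UMIs (−1.87, FDR 0.0338).

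Among the members higher in cholinergic-marked nuclei, DIP-eta had the largest fold change. It had 172.2, 194.7 and 97.7 CPM in cholinergic-marked nuclei, against 27.1, 34.1 and 0 CPM in glutamatergic-marked nuclei (6 UMIs) and 47.4, 0 and 19.2 CPM in GABAergic-marked nuclei (9 UMIs). Every cholinergic value was above every other (2.61, SE 0.44, FDR 7.46e-04). Also higher there were beat-VII, at 141.7, 254.4 and 153.5 CPM (1.24, FDR 0.0374), and beat-IIIc, at 1057, 1460 and 1019 CPM (0.68, FDR 0.0094). Lower were beat-Ic, at 50.1, 103.6 and 62.8 CPM (−1.61, FDR 0.0027), side-VIII, at 192.96, 401.9 and 198.9 CPM (−1.24, FDR 2.85e-04), DIP-lambda, at 186.4, 298.3 and 80.3 CPM (−1.23, FDR 0.0071), and DIP-gamma, at 99.2, 178.99 and 136.1 CPM (−1.05, FDR 0.0303). In GABAergic-marked nuclei DIP-lambda had 367.1, 1279 and 517.4 CPM (1.46, FDR 0.0080), and side-III had 645.4, 1636 and 785.7 CPM, against 298.1, 546.03 and 345.6 CPM in glutamatergic-marked and 317.2, 693.98 and 338.5 CPM in cholinergic-marked nuclei (1.22, FDR 4.19e-04). Without the block only beat-VI (FDR 0.043) and DIP-eta (FDR 0.045) were called, both in the cholinergic contrast. With at least 2 transmitter UMIs per nucleus 33 members passed the filter, DIP-eta not among them, and the calls were beat-VI in the cholinergic (FDR 0.0060) and side-III in the GABAergic contrast (FDR 0.0194). Without experiment 1 DIP-zeta, beat-IIIc (both contrasts), beat-Ic, DIP-gamma (FDR 0.137) and, in the glutamatergic contrast, side-VIII were not called, and DIP-eta and beat-VII were not tested. Without experiment 3 DIP-zeta, beat-VII, DIP-gamma (FDR 0.209), DIP-lambda in the GABAergic contrast and side-VIII in the glutamatergic contrast were not called. In DESeq2 beat-VII was not called (FDR 0.223). With no filter on low counts DIP-gamma (FDR 0.369) and, in the glutamatergic contrast, side-VIII (FDR 0.261) were not called.

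**Figure D5:**
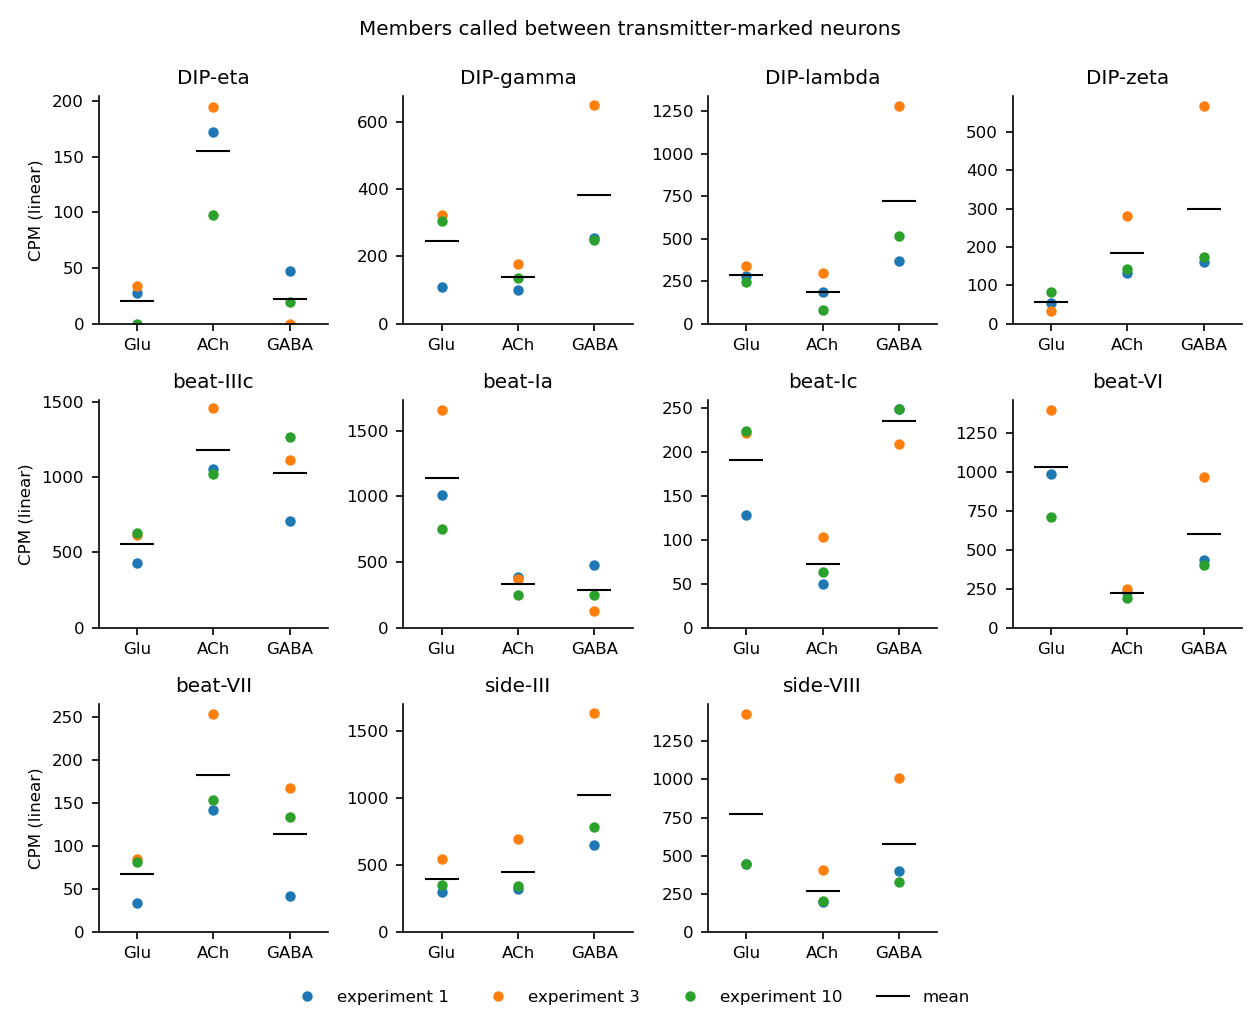
Level (CPM, linear axes that differ between panels) of the 11 members called between transmitter-marked classes of neuron-marked nuclei (Glu, glutamatergic; ACh, cholinergic; GABA, GABAergic), with 1 point per experiment and a bar at the mean. DIP-eta is highest in cholinergic-marked and beat-Ia in glutamatergic-marked nuclei in every experiment.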

How the data were processed

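Nuclei of whole embryos were profiled by sci-RNA-seq3, with transposase carrying only the N7 adapter. The authors aligned reads to dm6 (BDGP6), with STAR 2.7.3a named in the submitters' processing notes, and deposited raw UMI counts per gene and nucleus after removing nuclei by UMI, gene and ribosomal limits and doublets by a modified DoubletFinder. The percent of ribosomal and mitochondrial UMIs per nucleus, also deposited by the authors, was not used. Inferred age is the authors' neural network output in hours, and which of their models gave it is not stated.

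Counts were summed per experiment and window, inferred-age bin (at least 100 nuclei each) or marked class (at least 30). Differences were tested with edgeR 4.0.16 (filterByExpr, TMM, quasi-likelihood, Benjamini-Hochberg over all genes tested, FDR 0.05) in R 4.3.3, with experiment as a block for classes only. Tables were made in Python 3.11.15 with pandas 2.3.3. Experiments are the replicates, so p-values measure the spread between experiment sums. The fits were also run on simulated counts with known changes. Those counts were drawn independently with no effect of experiment, so they could not check the likeness of sums of the same experiment. Alternatives were the block, library size alone, DESeq2 1.42.0, no count filter, deeper or more strictly marked nuclei, other bins and onset levels, and each experiment left out. Fits in neuron-marked nuclei alone were chosen after seeing the data.

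Deviations from window means had a median r of 0.476 over 107 pairs of sums of the same experiment, of which 98.1% were above 0.1, and −0.081 over 544 pairs of different experiments, of which 22.1% were above 0.1. The pairing comes from the experiment named for each nucleus. The main window and trend fits leave it out, so their p-values treat sums of the same experiment as independent.

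Every member was named with its onset and peak. Values per experiment were given for the 3 members with most UMIs in each subfamily, the 3 largest called rises and falls in each step and class contrast, members called against their subfamily, and the known binding pairs. Members and gene lists were chosen with earlier results of these data known.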

Additional observations from a re-analysis of the deposited data

Results flagged for a closer look

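Within groups of 4 to 10 experiments, the highest or lowest experiment was compared with the others by Dixon's criterion. For normally spread values and independent groups, chance alone picks about 1 in 20 groups. Many values here lay near 0 and members share libraries, so the number picked cannot be set against that rate. A group with 1 value above 0 and the rest at 0, as for beat-Va, is always picked. Of 67 groups of member values, 12 were picked. At 0–2 h, experiment 10 stood above the other 3 experiments for 6 members. It had 6.36 CPM of side-V (0.542 to 1.23 in the others), 3.97 CPM of side (0 to 0.588), 2.77 CPM of side-IV (0 to 0.364), 1.35 CPM of beat-IIb (0 to 0.056), 0.898 CPM of dpr10 (0 to 0.112) and 0.374 CPM of dpr15 (0 in each). That sum also had 1.73% muscle-marked nuclei, against 0 to 0.0713% in the others, and the part of those nuclei in the values was not tested. Also at 0–2 h, experiment 2 had 3.07 CPM of dpr11 (0.136 to 0.599 in the others), and experiment 11 had 0.084 CPM of beat-Va (0 in each of the others).

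At 3–7 h experiment 1 had 31.4 CPM of beat-Ia (12.9 to 17.7 in the others) and 35.6 CPM of beat-VI (12.8 to 20.8), and experiment 4 had 11.3 CPM of beat-IIIa (0 to 3.45). In the bin of inferred age from 4 h, where DIP-alpha was highest, experiment 1 had 629.1 CPM of it, against 160.9 to 265.3 CPM in the others.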

How the results depend on the processing

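No call that made a gene a largest rise or fall, or set it against its subfamily, reversed under the alternatives run. Of the values of these calls, 49 no longer passed. Settings in which a gene was not tested are left out of this count. So are other calls, such as that of DIP-gamma in cholinergic-marked nuclei. The median r of pairs of different subfamilies was 0.741 without experiment 10.

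With experiment as a replicate block, the members higher and lower were 43 and 1 at 3–7 h against 0–2 h, 9 and 3 at 8–12 h against 3–7 h, 40 and 1 at 12–16 h against 8–12 h, and 0 and 0 at 16–20 h against 12–16 h, where 84 of all genes were higher and 21 lower. Without the replicate block the transmitter calls of members were 0 higher and 0 lower (glutamatergic), 1 and 1 (cholinergic) and 0 higher (GABAergic), and 0 were lower in neuron-marked than in muscle-marked nuclei.

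At 8–12 h against 3–7 h, 4 members were higher and 1 lower in neuron-marked nuclei alone, 1 was lower in DESeq2, and 0 to 3 were lower when 1 experiment was left out. At 12–16 h against 8–12 h, 0 were lower in DESeq2 and in neuron-marked nuclei alone, and 0 to 1 with 1 experiment left out. In classes, leaving out 1 experiment gave 0 to 2 members lower against muscle and 0 to 1 against epidermis. For transmitters it gave 2 to 3 higher and 0 to 3 lower (glutamatergic), 0 to 3 and 3 to 6 (cholinergic), and 1 to 5 and 0 to 1 (GABAergic). At least 2 transmitter UMIs gave 0 and 0, 0 and 1, and 1 higher, and no count filter gave 5 higher (cholinergic) and 1 lower (GABAergic).

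The median onset at 10% of the peak was 6 h (dpr), 4 h (DIP), 6 h (beat) and 8.5 h (side), and at 50% it was 13 h in all 4. Bins of 2 h gave 12 h for dpr and DIP and 10 h for side, and pooled UMIs 12 h for DIP, 10 h for side and a peak at 14 h for DIP and beat. With 1 experiment left out, the median onset was 10 to 12 h for DIP (12 h without experiment 1, 3 or 11) and 10 to 10.5 h for side, and the median peak of dpr and beat 14 to 16 h. The median r of beat pairs was 0.768 in 2-h bins and 0.921 with pooled UMIs, and that of dpr pairs 0.727 to 0.81 with 1 experiment left out.

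Scaling moved the all-gene split. At 3–7 h against 0–2 h it was 5254 higher and 3277 lower (median 0.54), 5555 and 2865 with library size alone (0.80), and 6602 and 1891 in DESeq2 (1.40). At 12–16 h against 8–12 h it was 1574 and 951 (−0.24), 16.6% and 3.99% of genes in DESeq2 (median 0.20), and 2505 and 3386 with the block. At 8–12 h against 3–7 h it was 1350 and 788, 1269 and 1115 with library size alone, and 1851 and 1587 with the block. Few UMIs limit DIP-iota, the glia-marked sums and the transmitter classes. The cause of these changes was not tested.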
